A study of Bubalus bubalis with 12 samples.

Results

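Serpins, the Kazal-type inhibitor SPINK5 and the stefins CSTA and CSTB belong to families of protease inhibitors and are found in squamous epithelium. A set of 10 such genes was chosen by name, and 7 of them had a row among the 34037 genes of the deposited table, namely 5 clade B serpins (SERPINB5, SERPINB7, SERPINB11, SERPINB12 and SERPINB13), SPINK5 and CSTA. These 7 are called inhibitors here by family, although SERPINB5 lacks protease inhibition. SERPINB2, SERPINB8 and CSTB were not analysed here, since 3 of the names matched no row. Ruminal wall was collected at slaughter from 12 mature Italian Mediterranean dairy buffaloes, each giving 1 library of total RNA. The control group of 6 animals received a total mixed ration (TMR), and in the treated group of 6 animals freshly cut ryegrass made up 30% of the diet. Both diets were matched in energy and nitrogen, and the comparison asks how the wall differs when green forage is part of the ration. The treated ration also held less corn silage and alfalfa hay, no soybean meal and more corn meal. Ryegrass and these other changes of feed cannot be told apart. Between 10531541 and 12948372 fragments were counted per animal, and expression is given as FPKM, a count of fragments divided by gene length and by the animal's total. The table lists the genes under the NCBI gene identifiers 102409667 (SERPINB5), 102404811 (SERPINB7), 102405134 (SERPINB11), 102409992 (SERPINB12), 102410331 (SERPINB13), 102399068 (SPINK5) and 102408267 (CSTA).

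The rumen is lined by a stratified squamous epithelium that sheds its outermost cells into the lumen. Shedding in such epithelia depends on proteases that cut the junctions between cells, and inhibitors made by the upper layers hold these proteases back. Clade B serpins act mostly inside cells and trap serine or cysteine proteases by a change of shape after they are cut, although some members have lost this activity. LEKTI, the product of SPINK5, is secreted between cells and inhibits kallikreins, and its loss causes Netherton syndrome. CSTA inhibits lysosomal cysteine proteases and is built into the cornified envelope.

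A pair of libraries stood apart from the rest. Over the 12642 genes tested, the mean correlation of log2(FPKM + 0.01) with the other 11 animals was 0.922 for treated replicate 6 and 0.926 for control replicate 6, and it lay between 0.936 and 0.954 for the remaining 10 animals. Each of these libraries was most like the other, with a correlation of 0.944. Of all genes tested, 8.68% were higher in both of these libraries than in any of the other 10 and 19.4% were lower in both. Of the 7 inhibitors 3 were higher in both (SERPINB5, SERPINB13 and SERPINB7, the last tested only through its reads in treated replicate 6), 0 were lower and 4 were neither. For SERPINB7 this rested on few reads, with 20 in control replicate 6 against 16 in control replicate 1. Of the 9 basal markers, all tested, 3 were lower in both, 1 was higher, and 5 were neither. KRT5, the keratin of basal keratinocytes, was among the lower ones, with 451 FPKM in control replicate 6 and 498 FPKM in treated replicate 6 against 1179 to 2372 FPKM in the other 10 animals. COL17A1, a collagen that anchors basal cells to the basement membrane, was at 57.5 and 53.2 FPKM in these libraries against 128.8 to 158.3 FPKM in the others. DSG3, a desmosomal cadherin of the lower layers, was the higher one, at 970.9 FPKM in control replicate 6 and 843.5 FPKM in treated replicate 6 against 549.5 to 829.8 FPKM. KRT15 in treated replicate 6, at 758.1 FPKM, lay within the range of the others. Of 23 suprabasal genes tested, 17 were neither, 1, the epithelial transcription factor EHF, was higher and 5 were lower, a share near that of all genes. The lower ones were ELF3, KRT10, PKP1, PPL and EVPL. KRT10 was scarce, at 0 FPKM in control replicate 6 and 0.273 FPKM in treated replicate 6 against 0.307 to 5.48 FPKM. PKP1, a desmosomal plaque protein, was at 117.2 and 63.5 FPKM against 255.7 to 399.4 FPKM. The envelope protein PPL was at 14.95 and 13.6 FPKM against 33.8 to 55.5 FPKM, and EVPL, another, at 11.3 and 8.88 FPKM against 23.4 to 43.5 FPKM. Among the other cell types, 0 of 5 endothelial, 0 of 3 lymphocyte, 0 of 5 macrophage and dendritic cell and 0 of 2 glandular genes tested lay beyond the other animals in both, against 1 of 7 smooth muscle genes (SMTN, lower), 1 of 10 fibroblast genes (COL6A3, higher) and 1 of 2 neutrophil genes (CSF3R, lower). In bulk tissue, fewer cells of a type and less RNA per cell cannot be told apart.

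Many squamous markers were abundant, though 6 of the 26 suprabasal genes with a row had a mean below 1 FPKM (SBSN, CDSN, KRT4, KRTDAP, LOR and KRT1). Of 7 glandular markers 5 were below 1 FPKM, and KRT8 and KRT20 were above it. Of the basal squamous list, 9 of 10 genes had a row and all of these 9 were tested, with KRT5, KRT15 and DSG3 as the most abundant. Of the suprabasal list, 26 of 30 genes had a row, and KRT13, a keratin of moist stratified epithelium, led at 1650 ± 698 FPKM (SD, n = 6) in the control group and 1495 ± 691 FPKM in the treated group, followed by TGM3, a transglutaminase of the cornified envelope. KRT1, the keratin of the upper epidermis, was listed at 0 in all 12 animals. The glandular markers TFF1, TFF2 and KRT18 were also listed at 0 in every animal, and MUC5AC and MUC5B had means of at most 0.0107 FPKM in either group.

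The levels of the 7 inhibitors spanned a wide range. By mean FPKM over all animals, which is a scale per gene length, the order was SERPINB5 (235), SPINK5 (199), SERPINB13 (61.1), CSTA (14.7), SERPINB12 (7.20), SERPINB11 (1.50) and SERPINB7 (0.793). SERPINB5 exceeded 97.8% and SPINK5 97.6% of the genes tested in mean FPKM, whereas SERPINB7 exceeded 6.55%. Without treated replicate 6 the means of CSTA, SERPINB11 and SERPINB7 were 8.01, 1.07 and 0.314 FPKM, SERPINB7 exceeded 1.15% of the genes tested, and the order of the 7 genes was the same. Not every neighbouring pair in this order kept it in each animal. SERPINB5 was above SPINK5 in 10 of 12 animals with a median ratio of 1.23, and CSTA was above SERPINB12 in 8 of 12 animals. SPINK5 was above SERPINB13, SERPINB13 above CSTA, and SERPINB12 above SERPINB11 in each of the 12 animals. SERPINB11 was above SERPINB7 in 11 of 12 animals, the exception being control replicate 6 with a ratio of 0.990.

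**Figure D1:**
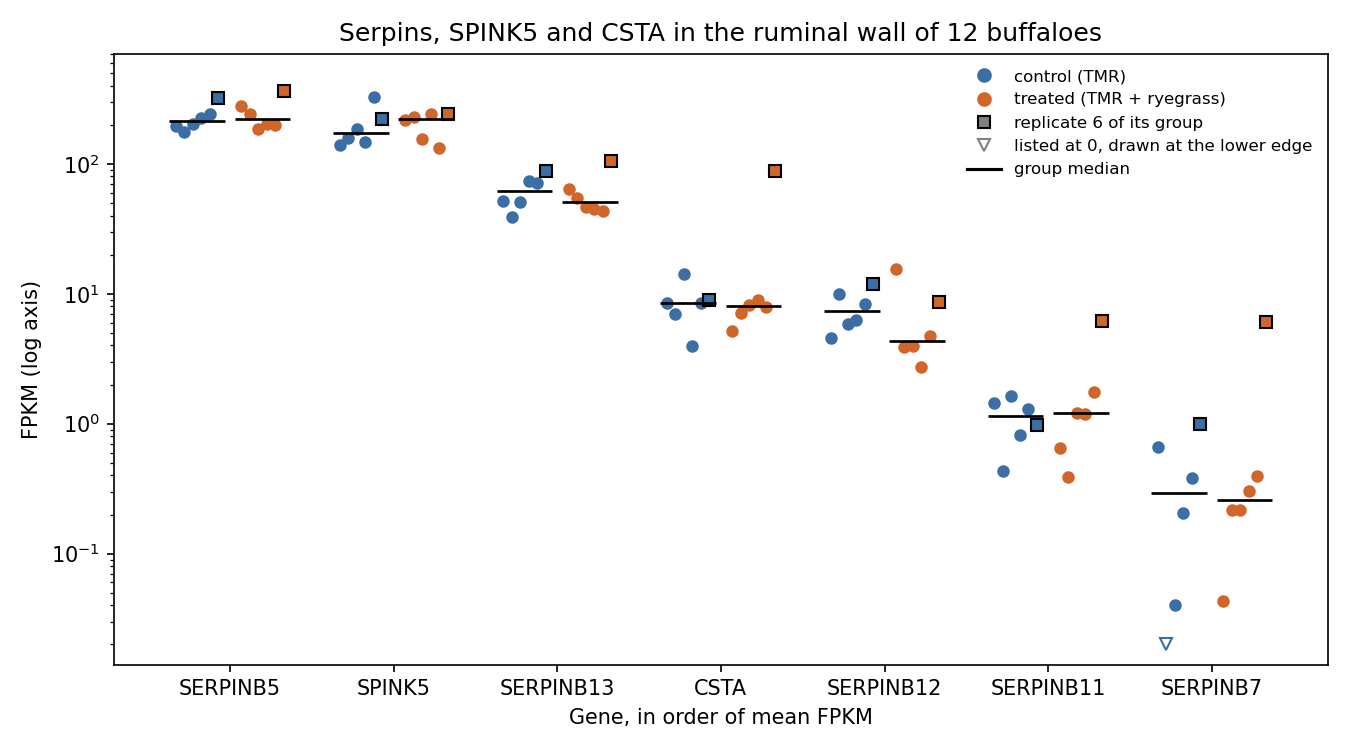
FPKM of the 7 inhibitors on a log axis, 1 point per animal, with controls in blue, treated animals in orange, squares for replicate 6 of either group and a black line at each group's median. Treated replicate 6 lies far above the other treated animals for CSTA (87.9 FPKM), SERPINB11 (6.20 FPKM) and SERPINB7 (6.06 FPKM), and the open triangle marks control replicate 2, where SERPINB7 was listed at 0.

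None of the 7 inhibitors differed between the diets at an adjusted p-value below 0.05 in limma, and of all 12642 genes tested 0.0% did. At a nominal limma p-value below 0.05 the count was 0 of 7 against 157 genes or 1.24% overall. The paper, which used edgeR, lists CSTA as raised at a nominal p-value below 0.05. By the two-sided exact permutation test over all assignments of the animals, 0 of 7 were nominal against 1.73% of all genes. The groups overlapped for each of the 7 genes, while 0.0554% of all genes had groups that did not overlap. The median log2 fold change, treated minus control on log2(FPKM + 0.01), was 0.10 over the 7 genes and 0.0053 over all genes tested. It was -0.11 over the 7 genes without treated replicate 6 and -0.08 without both animals numbered 6. These counts carry a limit, because SERPINB7 and SERPINB11 each reached the minimum of reads in 1 animal, treated replicate 6, and would otherwise not have been tested.

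SERPINB5, or maspin, is a serpin without protease inhibition that is known from keratinocytes and breast epithelium. In controls its FPKM ran from 175.2 over a median of 212.6 to 319.0, and in treated animals from 185.6 over a median of 221.7 to 362.6. The highest animal of each group was replicate 6, and the groups overlapped. Its log2 fold change was 0.10 ± 0.18 (SE, n = 6 per group) with a 95% interval from -0.29 to 0.49, an exact permutation p of 0.610 and an adjusted limma p of 0.9997. Without treated replicate 6 the log2 fold change was -0.02.

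SERPINB13, or hurpin, inhibits lysosomal cathepsins and is expressed in stratified epithelia. It ran from 38.7 over a median of 61.6 to 88.7 FPKM in controls and from 43.0 over a median of 50.9 to 104.7 FPKM in treated animals. Again replicate 6 was the highest of each group, and 1 treated animal exceeded every control. Between the diets the log2 fold change was -0.08 ± 0.24 (SE) with an exact permutation p of 0.755. It was 0.03 without control replicate 6 and -0.26 without treated replicate 6.

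SERPINB12 is an inhibitor of trypsin-like serine proteases. Its FPKM in controls lay between 4.56 and 11.9 with a median of 7.34, and in treated animals between 2.75 and 15.5 with a median of 4.36. Treated replicate 1 was the highest of all 12 animals, control replicate 6 the highest control, and 4 of the 6 treated animals were below the control median. For this gene the log2 fold change was -0.43 ± 0.38 (SE) with a 95% interval from -1.24 to 0.38 and an exact permutation p of 0.333. It was -0.23 without treated replicate 4 and -0.30 without control replicate 6. Without treated replicate 1 it was -0.73, and SERPINB12 was then the 1 gene of the set with a nominal limma p-value below 0.05, which did not pass adjustment.

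SERPINB11 and SERPINB7 were scarce. SERPINB11, whose inhibitory activity differs between mammals, ran from 0.433 over a median of 1.14 to 1.63 FPKM in controls and from 0.385 over a median of 1.20 to 6.20 FPKM in treated animals. Its 153 reads in treated replicate 6 made up 35.6% of its reads in the whole series, and the other animals had between 9 and 41 reads. The log2 fold change of 0.31 ± 0.55 (SE) had an exact permutation p of 0.660 and was -0.15 without that animal.

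SERPINB7, or megsin, is the serpin whose loss causes the Nagashima type of palmoplantar keratoderma. In controls it ran from 0 over a median of 0.294 to 0.990 FPKM, and in treated animals from 0.0436 over a median of 0.260 to 6.06 FPKM. The value at 0 belonged to control replicate 2, in which 3 reads would have equalled 0.131 FPKM, and control replicate 3 and treated replicate 1 had 1 read each. Treated replicate 6, with 148 reads, held 65.5% of the gene's reads and stood 27.9 times above the median of the other 11 animals. The log2 fold change of 1.03 ± 1.21 (SE) had an exact permutation p of 0.474, and with a pseudocount of 1 in place of 0.01 it was 0.30. It was 0.22 without treated replicate 6, 0.21 without control replicate 2 and 1.58 without treated replicate 1.

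SPINK5 had no treated animal far above the rest. It ran from 139.5 over a median of 171.5 to 325.7 FPKM in controls and from 133.0 over a median of 223.0 to 240.9 FPKM in treated animals. The animals numbered 6 were at 221.3 FPKM in controls and 239.7 FPKM in the treated group. Control replicate 5 was the highest, no treated animal exceeded it, and 4 of 6 treated animals were above the control median. Its log2 fold change was 0.08 ± 0.22 (SE) with a 95% interval from -0.39 to 0.54 and an exact permutation p of 0.747. It was -0.01 without control replicate 1 and 0.24 without control replicate 5.

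CSTA was the member with the widest relative range among those above 0 in every animal, from 3.93 to 87.9 FPKM. Controls had a lowest value of 3.93, a median of 8.46 and a highest value of 14.1 FPKM, and treated animals had 5.21, 8.01 and 87.9 FPKM. The medians of the groups were close, and the treated mean of 20.9 ± 32.9 FPKM (SD) against 8.47 ± 3.32 FPKM in controls rested on treated replicate 6. That animal had 538 of the reads, or 51.2% of all reads of the gene, and stood 10.8 times above the median of the other animals. The log2 fold change was 0.49 ± 0.56 (SE) with an exact permutation p of 0.630, and it was -0.11 without treated replicate 6 and -0.08 without both animals numbered 6. Leaving out both was chosen after seeing the data. The paper lists CSTA among the genes raised under green feed, by edgeR at a nominal p-value below 0.05. Its log2 fold change is larger than the one given here. The measures are unlike, since edgeR models counts and the value here is a difference of mean log2 values. No gene passed adjustment in that edgeR comparison.

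Some inhibitors varied together from animal to animal. Pearson correlations of log2(FPKM + 0.01) over the 12 animals, computed for 21 pairs and given as a description, were above 0.5 for 10 pairs and for 5 pairs without treated replicate 6. Without that animal, 8 of the 21 pairs were below 0. SERPINB5 and SERPINB13 had a Pearson correlation of 0.919 and a Spearman correlation of 0.860, and Pearson's value was 0.785 without both animals numbered 6, which lay farthest from the median of SERPINB5. SERPINB11 and CSTA had 0.821 by Pearson and 0.671 by Spearman. Pearson's value for this pair was 0.525 without treated replicate 6 and 0.594 once treated replicates 2 and 6 were left out. The relation of SERPINB5 to CSTA rested on treated replicate 6, since Pearson's value of 0.530 became -0.190 without that animal, and it was -0.408 without both animals numbered 6. The animals share libraries of like depth, and no p-value is attached to these relations.

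The genes outside the set that were most like each inhibitor, by the same correlation among all genes tested, were different for each. IPPK, which makes inositol hexakisphosphate, followed SERPINB5 at 0.968, ahead of ENDOD1 at 0.944 and FAF1 at 0.937. VMP1, a membrane protein of autophagy, followed SERPINB13 at 0.958, with SLC28A3 at 0.946 and ANKRD22 at 0.944. SERPINB12 was closest to TM7SF3 at 0.893, LOC112586879 at 0.885 and SRP54 at 0.878. SERPINB11 was closest to TMEM199 at 0.958, CHMP5 at 0.942 and MRPL9 at 0.936, and SERPINB7 to PTPRA at 0.903, OGFOD1 at 0.864 and SUCLG2 at 0.860. Without treated replicate 6 these were 0.907, 0.868 and 0.853 for SERPINB11 and 0.844, 0.774 and 0.772 for SERPINB7. SERPINB7 had 3 reads or fewer in 3 animals, where its log2 values depend on the pseudocount. SPINK5 was closest to the peptide and histidine transporter SLC15A4 at 0.895, then B3GNT3 at 0.890 and FRMPD1 at 0.860. For CSTA, LOC112582955 at 0.918, PHF5A at 0.916 and TMEM59 at 0.898 came first, and without treated replicate 6 these were 0.644, 0.633 and 0.595.

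The clade B serpins of the set are neighbours on chromosome 22. In the order of the NDDB_SH_1 assembly of RefSeq, which is not the build the reads were aligned to, 12 genes run from SERPINB7 to SERPINB5, of which 8 had a row and 5 are the serpins named here. Of these serpins, SERPINB11 has its symbol from the deposited table only, since RefSeq lists it as LOC102405134. The remaining 3, LOC102405462, LOC112581362 and LOC102406016, were chosen after their values were seen and carry no symbol in either source. LOC102406016 was far more abundant than any of the 7 inhibitors, with 1009 to 1834 FPKM and a mean above 99.4% of the genes tested. Its 3 highest animals were control replicate 5 with 1834 FPKM, treated replicate 6 with 1801 FPKM and control replicate 6 with 1652 FPKM. LOC112581362 lay between 44.4 and 121.6 FPKM and was highest in treated replicate 6. LOC102405462 lay between 2.70 and 31.5 FPKM, with its lowest values in control replicate 5 (2.70) and control replicate 6 (3.82). Along this stretch mean levels went from 0.793 FPKM for SERPINB7 to 1261 FPKM for LOC102406016. The log2 fold changes of LOC102405462, LOC112581362 and LOC102406016 were 0.82, 0.11 and -0.06, and they had exact permutation p-values of 0.227, 0.695 and 0.890. Single animals moved these values. LOC102405462 was at 0.46 without control replicate 5, and at 1.10 without control replicate 2, where its limma p-value was nominal but did not pass adjustment. LOC112581362 was at -0.06 without treated replicate 6, and LOC102406016 at 0.04 without control replicate 5 and 0.01 without control replicate 6.

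**Figure D2:**
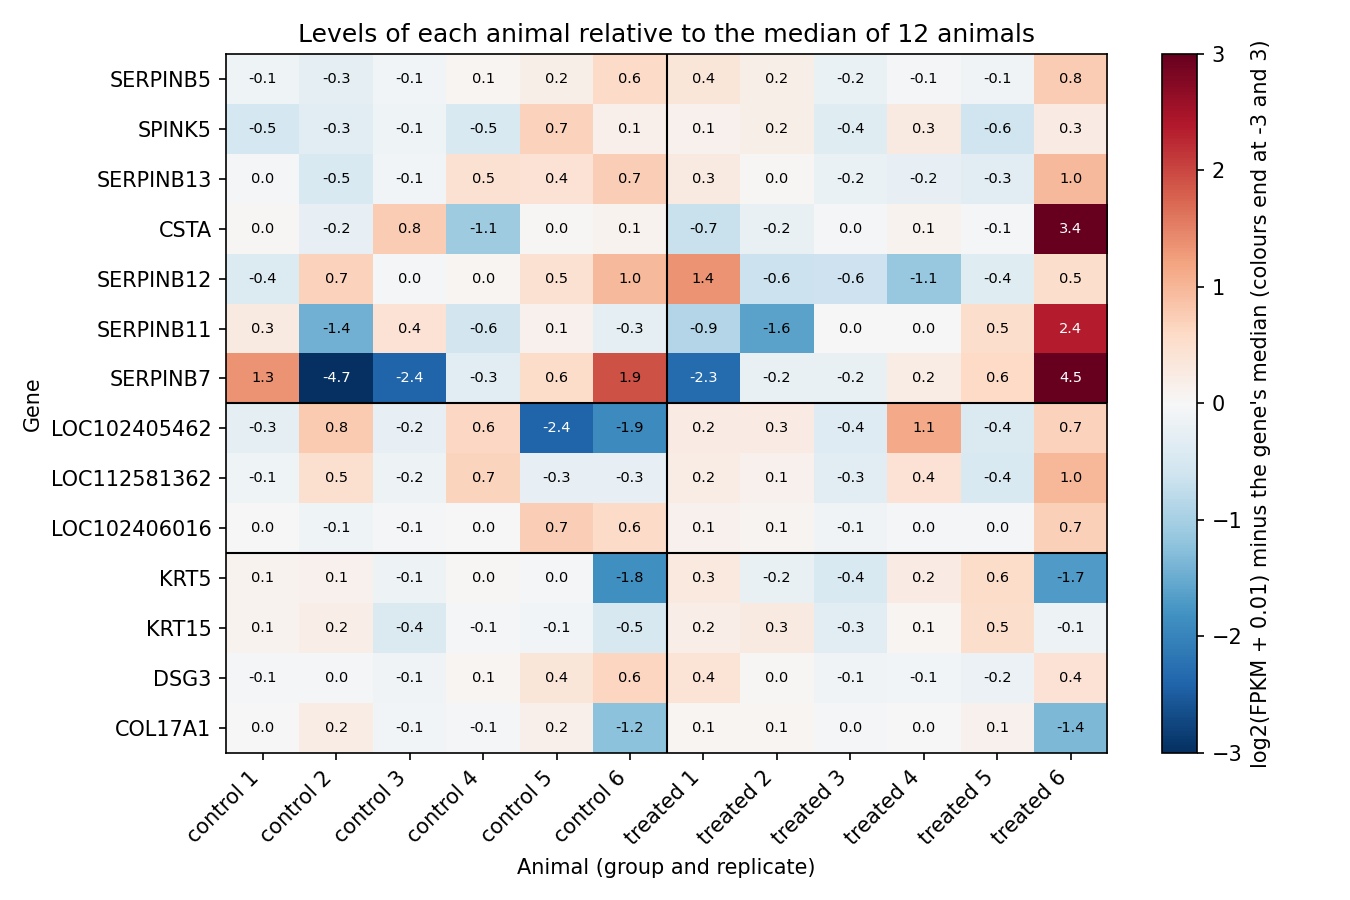
log2(FPKM + 0.01) of each animal minus the median of the 12 animals for that gene, as colour and number, with the 7 inhibitors on top, the 3 neighbouring genes of chromosome 22 in the middle and the 4 most abundant basal markers below. Treated replicate 6 stands above the median for each of the 7 inhibitors and, with control replicate 6, below it for KRT5, KRT15 and COL17A1 and above it for DSG3.

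Other protease inhibitors were led by A2ML1, a broad-range inhibitor of stratified epithelia, at 1508 ± 593 FPKM (SD) in the control group and 1315 ± 465 FPKM in the treated group. CST6, a secreted cystatin, was at 394 ± 81.2 and 385 ± 120 FPKM, and SPINT2, a Kunitz-type inhibitor of membrane serine proteases, at 307 ± 33.5 and 302 ± 25.8 FPKM. Of the 20 genes of this list, 12 had a row and 10 were tested, of which 0 were nominal in limma, with a median log2 fold change of -0.10. In both animals numbered 6, 0 of these 10 lay above or below all of the others. SLPI was listed at 0 in every animal.

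Of a list of serine proteases and their receptors, 22 of 23 genes had a row and 16 were tested, with 0 nominal and a median log2 fold change of -0.06. The kallikreins KLK5 and KLK7, which are targets of LEKTI in skin, were listed at 0 in every animal, as was KLK6. KLK14, another target, had a mean of 0.692 FPKM in the control group and 0.703 FPKM in the treated group. KLK12, KLK10 and KLK13 were higher, with control means of 16.8, 14.3 and 8.02 FPKM, and were named after their values were seen. Whether LEKTI inhibits these kallikreins or KLK6 was not examined here. The most abundant proteases were the membrane-bound TMPRSS11D with 111 ± 49.9 and 119 ± 60.1 FPKM (SD) in control and treated animals, TMPRSS11A with 54.8 ± 23.8 and 48.5 ± 33.9 FPKM, and TMPRSS13 with 49.7 ± 10.8 and 49.0 ± 13.4 FPKM. TMPRSS11D was at 201.4 FPKM in control replicate 6 and 232.7 FPKM in treated replicate 6, against 60.2 to 133.8 FPKM in the other 10 animals. TMPRSS11A was likewise highest in these animals, at 88.2 and 113.8 FPKM against 20.0 to 69.9 FPKM. TMPRSS13 was lowest in them, at 31.9 and 24.2 FPKM against 43.0 to 63.9 FPKM. Of the 16 genes tested, 3 were higher and 3 lower in both of these animals than in any of the others, and 10 were neither. F2RL1, a receptor that serine proteases activate by cleavage, was at 32.5 ± 3.76 and 31.0 ± 3.37 FPKM.

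All 13 cysteine proteases of the list had a row, and 11 were tested, with 0 nominal and a median log2 fold change of -0.03. With a block for the replicate numbers, 1 of the 11 was nominal. CTSB was at 161 ± 12.4 FPKM (SD) in controls and at 153 ± 12.9 FPKM under the green diet, a narrow spread beside that of CSTA. CTSV, a lysosomal cathepsin of squamous epithelium, was at 109 ± 33.5 and 126 ± 67.3 FPKM. It was highest in treated replicate 6 with 262.4 FPKM and in control replicate 6 with 163.6 FPKM, against 74.8 to 129.3 FPKM in the others. CAPN1 was lowest in these animals, at 13.0 and 22.6 FPKM against 33.0 to 64.9 FPKM. Of the 11 genes tested, 2 were higher and 3 lower in both than in any of the other 10 animals, and 6 were neither. CTSL had means of 0.0509 and 0.128 FPKM, CASP14 was listed at 0 in all animals, and the calpain CAPN1 and the asparaginyl protease LGMN were at 38.9 ± 10.7 and 33.7 ± 7.14 FPKM in controls.

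The smooth muscle and fibroblast markers tested had log2 fold changes below 0, none of which passed adjustment in limma. All 7 smooth muscle genes tested had a log2 fold change below 0, with a median of -0.72 and 1 nominal gene, DES, at -1.04. DES was no longer nominal with any of control replicates 2, 3 and 6 or treated replicates 1, 2 and 5 left out, its log2 fold change lying between -0.98 and -0.77, and its exact permutation p over all animals was 0.0520. All 10 fibroblast genes were below 0 as well, with a median of -0.59 and 0 nominal. By mean FPKM, SMTN (13.5 against 13.4) and THY1 (2.07 against 1.94) were slightly higher in the treated group than in the control group. The fibroblast median was -0.28 without treated replicate 1 and -0.91 without treated replicate 6. The summed level of the smooth muscle list was 39.2 ± 7.67 FPKM (SD) in the control group and 28.9 ± 9.87 FPKM in the treated group, and that of the fibroblast list 150.7 ± 93.4 and 104.2 ± 68.4 FPKM, led by SMTN and TAGLN and by COL3A1 and LUM. Treated replicates 1 and 2 had fibroblast sums of 21.8 and 41.5 FPKM, the lowest of the series. With the mean of these markers as a covariate, the log2 fold changes were 0.97 for CSTA, 0.90 for SERPINB11, 2.04 for SERPINB7 and -0.72 for SERPINB12, while SERPINB5, SERPINB13 and SPINK5 were at 0.11, -0.07 and 0.07, and 0 of 7 genes were nominal. With the mean of the basal markers as a covariate the 7 values lay between -0.42 for SERPINB12 and 1.18 for SERPINB7, and 0 were nominal.

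The remaining cell type lists had medians on either side of 0. The basal list had a median log2 fold change of 0.06 and the suprabasal list of 0.01 over 23 genes tested, with 0 nominal in each. Endothelial genes had a median of -0.08 over 5 tested, lymphocyte genes -0.26 over 3, macrophage and dendritic cell genes 0.03 over 5, neutrophil genes -0.15 over 2 and glandular genes 0.29 over 2, all with 0 nominal. PECAM1, CD3D, CD14, CXCR2 and KRT8 were the most abundant of these lists, with control means of 7.55, 8.80, 20.7, 2.92 and 18.6 FPKM, followed by VWF, CD3E, AIF1, CSF3R and KRT20 with 4.50, 6.08, 7.94, 0.581 and 5.996 FPKM. CD79B and MPO were listed at 0 in all animals.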

How the data were processed

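The authors trimmed the reads with Trimmomatic 0.39, aligned them to UOA_WB_1 with STAR 2.5.2b, counted fragments per gene and strand with featureCounts 2.0.0, and deposited FPKM values; the gene lengths behind them are not given in the sources used here. Animals carry the replicate numbers of the sample descriptions; the titles number control replicate 6 and all treated animals differently. Of the table's 16 columns, 12 matched the animals by title and 4 others were left aside. For any gene, FPKM rise in steps of 1 read, from which the reads behind all 22972 genes above 0 were worked out. Of 300 gene lengths tried, 300 were whole, with a tolerance of 0.0001 for a whole number. Testing was limited to the 12642 genes that reached 41.64 reads on the TMM scale in 1 or more animals. It used limma 3.58.1 (R 4.3.3, trended eBayes) on log2(FPKM + 0.01), and p-values were adjusted over these genes by Benjamini-Hochberg. On this scale fold changes of genes near 0 depend on the pseudocount. A two-sided exact permutation test covered the 924 assignments, the smallest possible p being 0.00216. The limma step was tested on simulated data. Python 3.11.15, numpy 2.4.6, scipy 1.17.1, pandas 2.3.3 and matplotlib 3.10.9 were used. Floors of 3 reads cover counting error only. The members and lists were chosen with earlier results of these data known. Genes named by rule are the set, the most abundant 2 to 4 of each list and the 3 genes most like each member. The 3 neighbouring genes, further kallikreins, further basal markers, CTSL, PKP1, PPL, EVPL, EHF, ELF3, THY1 and COL6A3 fall outside it. So do scarce squamous and glandular genes and genes listed at 0. All of these were chosen after their values were seen. Alternatives were pseudocounts of 0.1 and 1, all genes above 0, at least 0.1 FPKM in at least 6 animals, median-ratio scaling, a block, 2 covariates, robust eBayes, voom, rank-sum tests and each animal left out. RefSeq matched 28666 of 34037 gene identifiers and 7 of 7 members.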

Additional observations from a re-analysis of the deposited data

Results flagged for a closer look

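In 5 of the 20 groups of 6 animals examined, the gap between 1 animal and the nearest of the others, as a share of the range of the group, was above the 95% critical value of Dixon for that group size. In each of these 5 this was treated replicate 6. Chance alone gives such a gap in about 1 of 20 groups. The genes share that 1 library, so the 5 cases are not independent of each other. SERPINB7 and SERPINB11 were tested only because of their reads in that animal, and LOC102406016 was chosen after its values were seen, so the chance share is no measure for these 5. The values were 87.9 FPKM for CSTA, 6.06 FPKM for SERPINB7, 6.20 FPKM for SERPINB11, 104.7 FPKM for SERPINB13 and 1801 FPKM for LOC102406016. The gap took up 95.5% of the range of the treated group for CSTA and 65.7% for SERPINB13. In the same library the basal markers KRT5, COL17A1, ITGB4, ITGA6, DST, TP63 and CDH3 lay below every animal not numbered 6. KRT15 lay within the range of those animals and DSG3 above it. The part of these basal levels in the flagged values was not tested.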

How the results depend on the processing

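No inhibitor passed an adjusted p-value of 0.05 in limma under any of 23 alternatives, and the number nominal lay between 0 and 1 with each animal left out, the 1 being SERPINB12 without treated replicate 1. Of 168 recomputed log2 fold changes of the 7 genes, 158 kept their direction and their side of the nominal threshold and 9 changed direction. With single animals left out, the log2 fold change ran from -0.02 to 0.21 for SERPINB5, 0.21 to 1.58 for SERPINB7, -0.15 to 0.65 for SERPINB11, -0.73 to -0.23 for SERPINB12, -0.26 to 0.03 for SERPINB13, -0.01 to 0.24 for SPINK5, -0.11 to 0.70 for CSTA, -0.06 to 0.23 for LOC112581362 and -0.18 to 0.04 for LOC102406016. Without both animals numbered 6, chosen after seeing the data, it was -0.16 for SERPINB11, -0.08 for CSTA and -0.12 for LOC112581362. As a difference of group medians it was -0.13 for SERPINB7, -0.08 for CSTA and 0.03 for LOC102406016, and without a change of direction 0.38 for SPINK5, -0.74 for SERPINB12, -0.26 for SERPINB13, 0.08 for SERPINB11, 0.06 for SERPINB5, 0.33 for LOC112581362 and 0.51 for LOC102405462. Leaving out an animal takes away its own weight and raises that of each remaining animal, while medians lower the weight of extreme animals. Further causes were not tested. Animals of the same number had correlated deviations in 4 of 6 pairs (above 0.1), from -0.0134 to 0.416 with a mean of 0.213 against -0.0394 for other pairs, and 8 of 12 animals were closest to their own number. Since this did not hold for every pair and the numbers, taken from the sample descriptions and not from the titles, which differ for control replicate 6 and the treated group, are tied to nothing shared, the block is given as an alternative, and whether the numbers mark a shared factor was not tested. With the replicate block 0 of 7 inhibitors were nominal and 0 were called, and the nominal genes overall went from 157 to 322. The cysteine proteases went from 0 to 1 nominal under this block. LOC102405462 was nominal without control replicate 2, at 1.10, and was at 0.46 without control replicate 5 and 0.47 without both animals numbered 6. List medians crossed 0 with single animals left out for serine proteases and their receptors (-0.13 to 0.16), cysteine proteases (-0.11 to 0.05), suprabasal (-0.10 to 0.10), endothelial (-0.32 to 0.15) and macrophage genes (-0.06 to 0.20), and reached 0.00 for basal genes and other inhibitors. Those of glandular (0.04 to 0.66), neutrophil (-0.42 to -0.01) and lymphocyte genes (-0.41 to -0.03) kept their sign with single animals left out. Nominal smooth muscle genes numbered 0 to 3 with single animals left out, and those of the other lists 0 to 1. Depth limits SERPINB7, which had 3 reads or fewer in 3 animals.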
